A study of Mus musculus with 32 samples.

Results

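The collagen chain genes were taken as all genes on the array whose symbol is Col followed by a type number, the letter a and a chain number. They were 42 of 18193 named genes, and for each the probe set of highest mean over the 32 arrays was used. Of these 42 genes, 22 had a mean at or above the level at which genes were tested (a signal of 106.1, which is the median over probe sets other than controls), and 20 lay below it. The 32 arrays held left ventricular RNA of individual C57Bl6 mice, 4 in each of 8 groups. The groups were wild-type females, wild-type males and females and males labelled as knockout of estrogen receptor beta, each after transverse aortic constriction (TAC) or sham surgery. TAC narrows the aorta and makes the left ventricle work against a higher pressure. All mice were labelled as aged 10 weeks. For the knockout TAC mice the labels state 9 weeks of TAC, and for the wild-type TAC mice they give no length of time. Whether the age is that at surgery or at the end is not stated. The knockout construct was not described in the labels, so the groups are named by genotype as labelled.

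Collagens are built from chains that wind into triple helices, and each type has its own chains. In the heart, fibrillar collagens made mainly by fibroblasts carry tension between the muscle cells, network collagens form the basement membranes around myocytes and capillaries, and fibril-associated and beaded-filament collagens sit on or between the fibrils. Pressure overload is known to add collagen to the ventricle, which stiffens it.

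The deposited signals had a 2% trimmed mean of 500 on each array, so they came scaled and raw brightness cannot be compared. Their medians lay between 101.6 and 127.8. Esr2, the gene of estrogen receptor beta, had signals of 3.6 to 67.7 in wild-type mice and of 25.8 to 196.8 in mice labelled knockout. Which exon was disrupted, and whether the probe set reads it, was not stated, so the probe set checks no label. Xist was between 4845.7 and 8071.8 in the females and between 59.2 and 172.5 in the males. The ventricular light chain gene Myl2 was abundant in all 32 mice, at 33175.6 to 88016.3, whereas the atrial light chain gene Myl7 varied within groups, for example from 7.2 to 16868.3 in wild-type female sham mice. The beta-actin control's 3-prime minus 5-prime log2 difference, a measure of RNA integrity and labelling, fell after TAC, with changes of -0.31 (female wild types), -0.41 (male wild types), -0.41 (female knockouts) and -0.36 (male knockouts; two-sided exact permutation p = 0.0286 each, the smallest that 4 against 4 mice allow, adjusted p = 0.0458 over the 8 tests of both controls). For Gapdh the same differences were 0.065, 0.092, 0.056 and 0.069 (exact p = 0.0857, 0.0571, 0.0286 and 0.143). All changes below are differences of log2(signal + 32) ± SE from limma with Benjamini-Hochberg adjusted p-values and 4 mice per group, and they understate the change of dim genes.

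After TAC the collagen chains were higher almost throughout. Averaged over the 4 strata of sex and genotype, 21 of the 22 tested chains passed an adjusted p of 0.05 and all 21 were higher, where 23.5% of the 11014 tested genes were called higher. The median change of the 22 was 0.88, against 0.016 over all tested genes. Because the ventricle was measured in bulk, more collagen-making cells and more collagen RNA per cell cannot be told apart. Col12a1 was tested only because its TAC mice raised its mean over the level, so it had to differ, and without it 20 of 21 chains were called higher with a median of 0.87. Among these 21 the largest change was that of Col8a1 (2.35 ± 0.18, 5.08-fold), and the smallest were those of Col4a5 (0.20 ± 0.08) and Col20a1 (0.14 ± 0.08, adjusted p = 0.186), the chain that did not pass. By type, 7 of 7 fibrillar chains, 5 of 5 basement membrane chains, 3 of 3 beaded-filament chains, 2 of 2 multiplexins, the single tested hexagonal-network chain and 3 of 4 fibril-associated chains were called higher.

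Promoter windows of 250 bases before the RefSeq start (build GRCm38.p6) were looked up for the members that moved together, and 17 of the 22 tested chains had an entry. Those of Col8a1, Col1a2 and Col3a1 are printed 5′ to 3′ on the gene's strand, since these chains stand for the network type with a large change and for the pair of major fibrillar types. They lie at chr16:57754738-57754987 (minus strand), chr6:4505368-4505617 (plus strand) and chr1:45311288-45311537 (plus strand). Capitals mark a GC box (GGGCGG, or CCGCCC where it lies on the other strand), a CCAAT box or a TATA box (TATAAA).
Col8a1: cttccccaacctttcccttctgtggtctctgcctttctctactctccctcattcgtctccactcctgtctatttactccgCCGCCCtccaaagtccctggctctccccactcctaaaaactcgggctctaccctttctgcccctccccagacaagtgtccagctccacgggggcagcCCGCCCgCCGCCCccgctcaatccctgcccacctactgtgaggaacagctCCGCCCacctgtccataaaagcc
Col1a2: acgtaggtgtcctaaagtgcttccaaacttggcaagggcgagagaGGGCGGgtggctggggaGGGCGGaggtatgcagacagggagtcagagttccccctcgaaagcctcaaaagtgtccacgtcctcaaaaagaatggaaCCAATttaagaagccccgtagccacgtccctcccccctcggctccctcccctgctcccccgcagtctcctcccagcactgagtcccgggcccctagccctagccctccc
Col3a1: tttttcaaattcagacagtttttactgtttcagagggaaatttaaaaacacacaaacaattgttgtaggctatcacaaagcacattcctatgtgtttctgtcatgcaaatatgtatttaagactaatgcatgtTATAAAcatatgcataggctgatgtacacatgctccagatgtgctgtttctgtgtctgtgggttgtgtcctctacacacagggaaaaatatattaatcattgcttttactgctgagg
The GC box was found on either strand in 10 of the 17 collagen windows and in 35.4% of the 27025 genes with an entry. CCAAT was found in 7 of 17 and in 37.5% of all. TATAAA was found in 1 of 17, that of Col3a1, and in 14.3% of all. The letters CAGACA, part of a SMAD element, stood in 6 of 17 windows (Col18a1, Col1a2, Col20a1, Col3a1, Col5a1 and Col8a1), against 19.3% of all. GGAATG, bound by TEAD factors, was found in 4 of 17 against 14.4%, TGACTCA, bound by AP-1, in 1 of 17 against 5.16%, and a CArG box in 0 of 17 against 1.62%. Col8a1 had 4 GC boxes and neither CCAAT nor TATAAA, Col1a2 had CCAAT and GC boxes, and Col3a1 had TATAAA alone of these 3 motifs. These are matches of letters in a window and show no binding.

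Type I collagen, whose Col1a1 and Col1a2 chains join in the same trimer, forms the thick tension-bearing fibres of the ventricle. In wild-type females Col1a1 signals were 1128, 573, 859 and 850.4 after sham surgery and 2493, 1398, 2465 and 2666 after TAC. In wild-type males Col1a1 was 739.9, 692, 688 and 1024 after sham surgery and 1567, 4796, 5293 and 3117 after TAC. All 4 TAC mice lay above all 4 sham mice in both sexes, and the lowest TAC signal belonged to 1 mouse in each. In knockout females Col1a1 was 549, 797, 619.5 and 636 after sham surgery and 2535, 2747, 2316 and 1055 after TAC. In knockout males Col1a1 was 514, 374, 694 and 799 after sham surgery and 1842, 948, 5626 and 3990.4 after TAC. The groups again did not overlap, although the 4 knockout male TAC mice were spread over a wide range. The change was 1.37 ± 0.39 (adjusted p = 0.0461), 2.06 ± 0.39 (adjusted p = 0.00186), 1.61 ± 0.39 (adjusted p = 0.0111) and 2.07 ± 0.39 (adjusted p = 0.000281) in limma for female wild types, male wild types, female knockouts and male knockouts, the order used for all 4 strata, and 1.78 ± 0.19 over the strata, a 3.43-fold rise.

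Among sham mice Col1a2 varied less than Col1a1, with log2 SDs of 0.08 to 0.16 in the 4 sham groups against 0.21 to 0.46. In wild-type females Col1a2 was 3949, 3474, 3833 and 3702 after sham surgery and 11163, 5563, 9264 and 5257 after TAC. In wild-type males Col1a2 was 3876, 3551, 3509 and 3206 after sham surgery and 5042, 9495, 10916 and 6153 after TAC. TAC and sham mice did not overlap in either, and the sham mice were close together. In knockout females Col1a2 was 3255, 3119.6, 2657 and 2609 after sham surgery and 10669.6, 7925, 7569 and 4465 after TAC. In knockout males Col1a2 was 2801, 3431, 2739 and 3027 after sham surgery and 8204, 6103, 17744 and 12293 after TAC. All 16 TAC mice lay above the highest of the 16 sham mice. The change over the strata was 1.29 ± 0.13 (2.45-fold, adjusted p = 9.27e-09 in limma), with 0.98, 1.09, 1.33 and 1.76 in the same order of strata, each past the threshold.

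**Figure D1:**
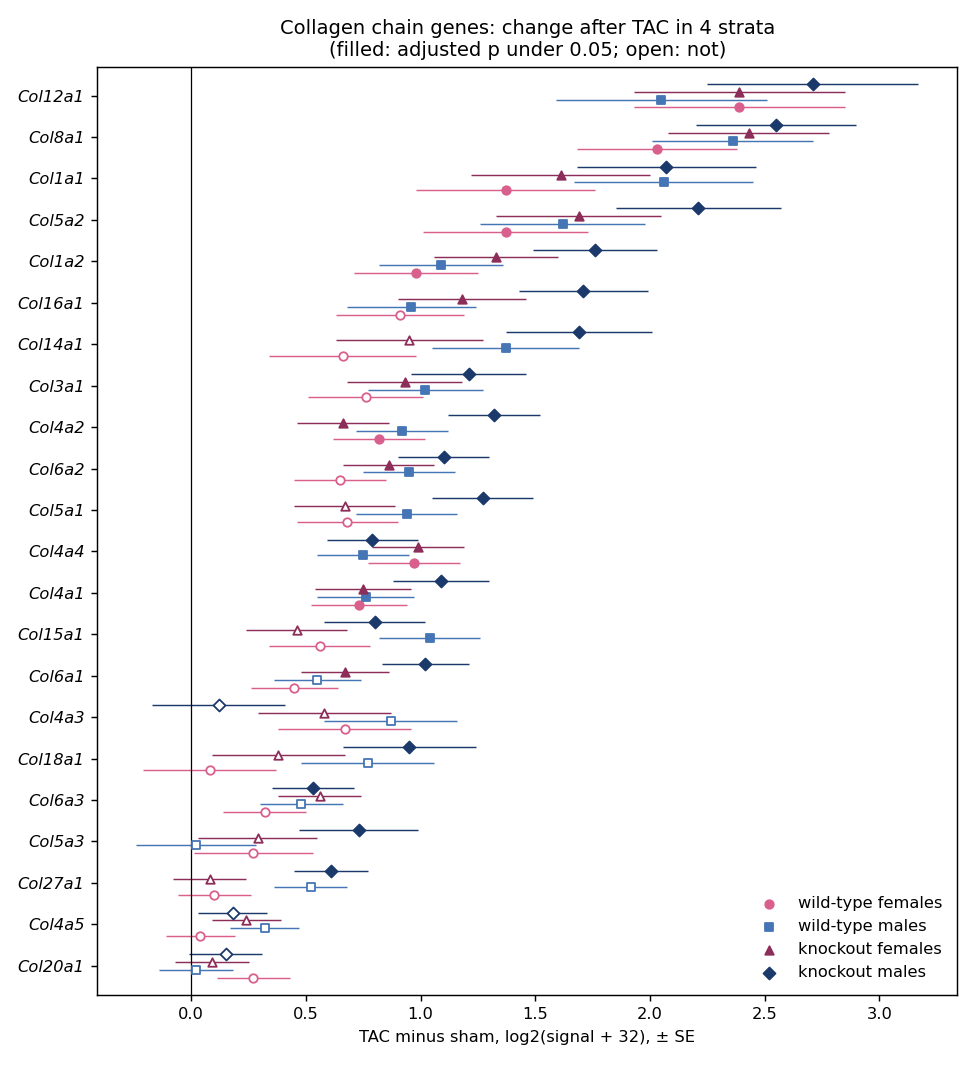
Change after TAC of each of the 22 tested collagen chains in the 4 strata of sex and genotype, as TAC minus sham on the log2(signal + 32) scale (horizontal axis; points are limma estimates from 4 against 4 mice, lines are ± SE, filled points have an adjusted p under 0.05). Each chain is read by its probe set of highest mean. By their mean over the strata Col12a1 and Col8a1 stand at the top, with points between 2.03 and 2.71, and points of Col1a1 and Col5a2 reach into that range. Col12a1 was tested only because its TAC mice raised its mean over the level. Every point lies to the right of 0.

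Type III collagen, a trimer of Col3a1 chains alone, forms thinner fibres with type I. In wild-type females Col3a1 was 11284, 8864, 8339.5 and 11807 after sham surgery and 25226, 13873, 20218 and 11603 after TAC. In wild-type males Col3a1 was 8928, 8561, 9352 and 6334 after sham surgery and 12144, 20814, 21791 and 14014 after TAC. One wild-type female TAC mouse, replicate 4, lay below the highest sham mouse of its sex, while the males did not overlap. In knockout females Col3a1 was 9251, 10718, 8421 and 7738 after sham surgery and 21159.7, 20543, 18069.7 and 10898 after TAC. In knockout males Col3a1 was 8062, 9253, 8540.3 and 7432 after sham surgery and 17202, 11409.8, 27848 and 24857 after TAC. The knockout groups did not overlap either. The change was 0.98 ± 0.12 over the strata (1.97-fold, adjusted p = 2.73e-07 in limma). It passed in male wild types (1.02) and in female (0.93) and male (1.21) knockouts, and was 0.76 ± 0.25 in wild-type females (adjusted p = 0.0877).

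Type V collagen starts type I fibrils and limits their width. Col5a2 ran from 836 to 1509 (median 949) in the 16 sham mice and from 1676 to 8548 (median 3620.0) in the 16 TAC mice. Every TAC mouse lay above every sham mouse. Col5a2 rose by 1.72 ± 0.18 (3.30-fold, adjusted p = 1.24e-08 in limma), from 1.37 in wild-type females to 2.21 in knockout males, and passed in each stratum. Its partner chain Col5a1 ran from 863 to 1327 (median 964) in the 16 sham mice and from 1258 to 3418 (median 1888) in the 16 TAC mice, and 13 of the 16 TAC mice lay above the highest sham mouse. Col5a1 rose by 0.89 ± 0.11 (1.85-fold, adjusted p = 1.76e-07 in limma) and passed in the males of both genotypes (0.94 and 1.27), whereas in the females it was 0.68 and 0.67 (adjusted p = 0.0876 and 0.0632). The third chain of the type, Col5a3, ran from 241 to 943 (median 477) in the 16 sham mice and from 319.8 to 907 (median 559) in the 16 TAC mice, so the groups overlapped fully. Its change of 0.33 ± 0.13 (adjusted p = 0.042) passed over the strata and in knockout males (0.73). A second, dim probe set of Col5a3 gave -0.21 (unadjusted p = 0.0413 in limma), so the direction for this chain differed between probe sets. Col27a1, a fibrillar chain best known from cartilage, changed by 0.33 ± 0.08 and passed in knockout males (0.61 ± 0.16).

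Hexagonal-network collagen of type VIII is a short-chain collagen of vessel walls and of injured tissue. In wild-type females Col8a1 was 1219.7, 825, 1049 and 1186 after sham surgery and 7431, 3345, 5687 and 2715 after TAC. In wild-type males Col8a1 was 909.8, 1120.4, 1029 and 902 after sham surgery and 2311, 8578, 8279 and 4421 after TAC. No TAC mouse came near the sham mice, although TAC mice of the same group differed widely. In knockout females Col8a1 was 808, 725, 948 and 757 after sham surgery and 6766, 5525, 4134 and 2639.5 after TAC. In knockout males Col8a1 was 1190.0, 1219.9, 791 and 787 after sham surgery and 5570.5, 2815, 9644 and 7895 after TAC. The lowest TAC mouse of all 16 had 2311, above the highest sham mouse at 1219.9. Col8a1 had the smallest p of all the chains over the strata (adjusted p = 1.99e-11 in limma) and rose by 2.03, 2.36, 2.43 and 2.55 (SE 0.35 each) in the same order of strata. Col8a2, the other chain of the type, lay below the tested level, at 2.5 to 79.3 in the sham mice and 73.5 to 501.5 in the TAC mice, and 15 of 16 TAC mice were above the highest sham mouse. When genes of all levels were tested, Col8a2 rose by 1.60 ± 0.21 (adjusted p = 1.17e-06 in limma). The value of 32 added to each signal shrinks this change, because Col8a2 was dim in the sham mice.

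Fibril-associated collagens lie on the surface of fibrils and link them to their surroundings. In wild-type females Col12a1 was 61, 18.9, 68.3 and 28 after sham surgery and 639, 249.7, 467 and 197 after TAC. In wild-type males Col12a1 was 71, 41.2, 74.5 and 58.5 after sham surgery and 143, 513, 619.8 and 313 after TAC. The sham signals were dim and lay below the tested level in all mice, and all TAC mice lay above them. In knockout females Col12a1 was 78, 69.5, 56.6 and 66.6 after sham surgery and 749, 451, 602 and 271 after TAC. In knockout males Col12a1 was 50.1, 79.8, 58.5 and 54.4 after sham surgery and 464, 119, 1259.5 and 1342 after TAC. Replicate 2 of the knockout male TAC mice, at 119.2, was the lowest TAC mouse and still above the highest sham mouse at 79.8. As a description, since its TAC mice alone brought it over the level, its changes were 2.39 ± 0.46, 2.05 ± 0.46, 2.39 ± 0.46 and 2.71 ± 0.46 in the same order of strata, and 2.39 ± 0.23 over them (5.22-fold). The size depended on the probe set. A second probe set of Col12a1 above the level rose by 0.86 ± 0.18 over the strata, and dim ones changed by 0.13 and -0.08.

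Col16a1, which is found at the edges of fibrils and near basement membranes, ran from 131 to 271 (median 208) in the 16 sham mice and from 288 to 1025 (median 482) in the 16 TAC mice. The ranges did not touch. Col16a1 rose by 1.19 ± 0.14 (2.28-fold, adjusted p = 8.87e-08 in limma), passed in male wild types (0.96) and in female (1.18) and male (1.71) knockouts, and was 0.91 ± 0.28 in wild-type females (adjusted p = 0.0724). Col14a1, which binds to type I fibrils and regulates their growth, rose by 1.16 ± 0.16 over the strata and passed in wild-type males (1.37 ± 0.32) and knockout males (1.69 ± 0.32). In females it was 0.66 ± 0.32 (adjusted p = 0.299) and 0.95 ± 0.32 (adjusted p = 0.0737). Col20a1 ran from 162 to 268 (median 186) in the 16 sham mice and from 174 to 270.5 (median 232) in the 16 TAC mice, without separation.

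The basement membrane network of type IV is built mainly from Col4a1 and Col4a2, which lie head to head on opposite strands. In RefSeq (GRCm38.p6) a CCAAT box lies 32 bases before the Col4a2 start. A stretch at chr8:11312761-11312790 (plus strand) is shown, with that box in capitals, because it lies near the starts of both genes. The RefSeq gene models of Col4a1 and Col4a2 overlap by 85 bases, and the box lies inside that of Col4a1, 49 bases past the start given for it in the promoter table.
Col4a2: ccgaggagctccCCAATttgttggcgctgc
In wild-type females Col4a1 was 8051, 5532, 5206 and 6137 after sham surgery and 10972, 7697, 11741 and 11038 after TAC. In wild-type males Col4a1 was 6495, 6401, 8181 and 5478 after sham surgery and 8936, 12252, 11706 and 12207 after TAC. In each of these strata 3 TAC mice were close together, 1 TAC mouse lay lower, and among the females that mouse overlapped the sham range. In knockout females Col4a1 was 7629, 9855, 4962 and 4492 after sham surgery and 12039, 11327, 11961 and 8286 after TAC. In knockout males Col4a1 was 5976, 5522, 6740.2 and 8708 after sham surgery and 14756, 10094, 16895 and 15776 after TAC. The knockout females overlapped, with 1 sham mouse at 9855.1 above 1 TAC mouse at 8286.1, and the knockout males did not. The change was 0.83 ± 0.10 over the strata (1.78-fold, adjusted p = 2.39e-07 in limma) and 0.73, 0.76, 0.75 and 1.09 in the same order of strata. Col4a2 ran from 2268 to 5356 (median 3872) in the 16 sham mice and from 5279.5 to 10781 (median 7485) in the 16 TAC mice, and 14 of the 16 TAC mice lay above the highest sham mouse. It rose by 0.93 ± 0.10 (1.91-fold, adjusted p = 1.7e-08 in limma) and passed in each stratum, from 0.66 in knockout females to 1.32 in knockout males. The call in knockout females was lost in 9 of the 32 fits that left out 1 mouse (adjusted p up to 0.148 in limma).

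Col4a3, Col4a4 and Col4a5 form a second type IV network, known from the kidney filter. Col4a4 ran from 197 to 393 (median 289) in the 16 sham mice and from 359 to 765 (median 548) in the 16 TAC mice, and 15 of the 16 TAC mice lay above every sham mouse. It rose by 0.87 ± 0.10 (1.83-fold, adjusted p = 3.71e-08 in limma) with similar sizes in all strata (0.97, 0.75, 0.99 and 0.79). Col4a3, its head-to-head neighbour, changed by 0.56 ± 0.14 over the strata and passed in none of them alone, with 0.12 ± 0.29 in knockout males. The size depended on the probe set, since a second one of Col4a3 above the level rose by 1.09 ± 0.25 over the strata. The change of Col4a5, 0.20 ± 0.08, also passed only over the strata (adjusted p = 0.038). The multiplexins Col15a1 and Col18a1, which tie basement membranes to the matrix around them, rose by 0.72 ± 0.11 and 0.55 ± 0.15. Col18a1, whose cleaved end is endostatin, passed in knockout males alone of the 4 strata, where its change was 0.95 ± 0.29 and 1 mouse stood at 608.8 while the other 3 were between 258.3 and 299.2.

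Type VI collagen forms beaded filaments around cells. Col6a2 ran from 1500.2 to 2661 (median 1933) in the 16 sham mice and from 2415 to 5456 (median 3977) in the 16 TAC mice, and 14 of the 16 TAC mice lay above the highest sham mouse. It rose by 0.89 ± 0.10 (1.85-fold, adjusted p = 4.66e-08 in limma). Col6a1 rose by 0.67 ± 0.09 and Col6a3 by 0.47 ± 0.09, each past the threshold over the strata. Col6a3 was called in knockout males (0.53 ± 0.18) and in no other stratum alone.

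**Figure D2:**
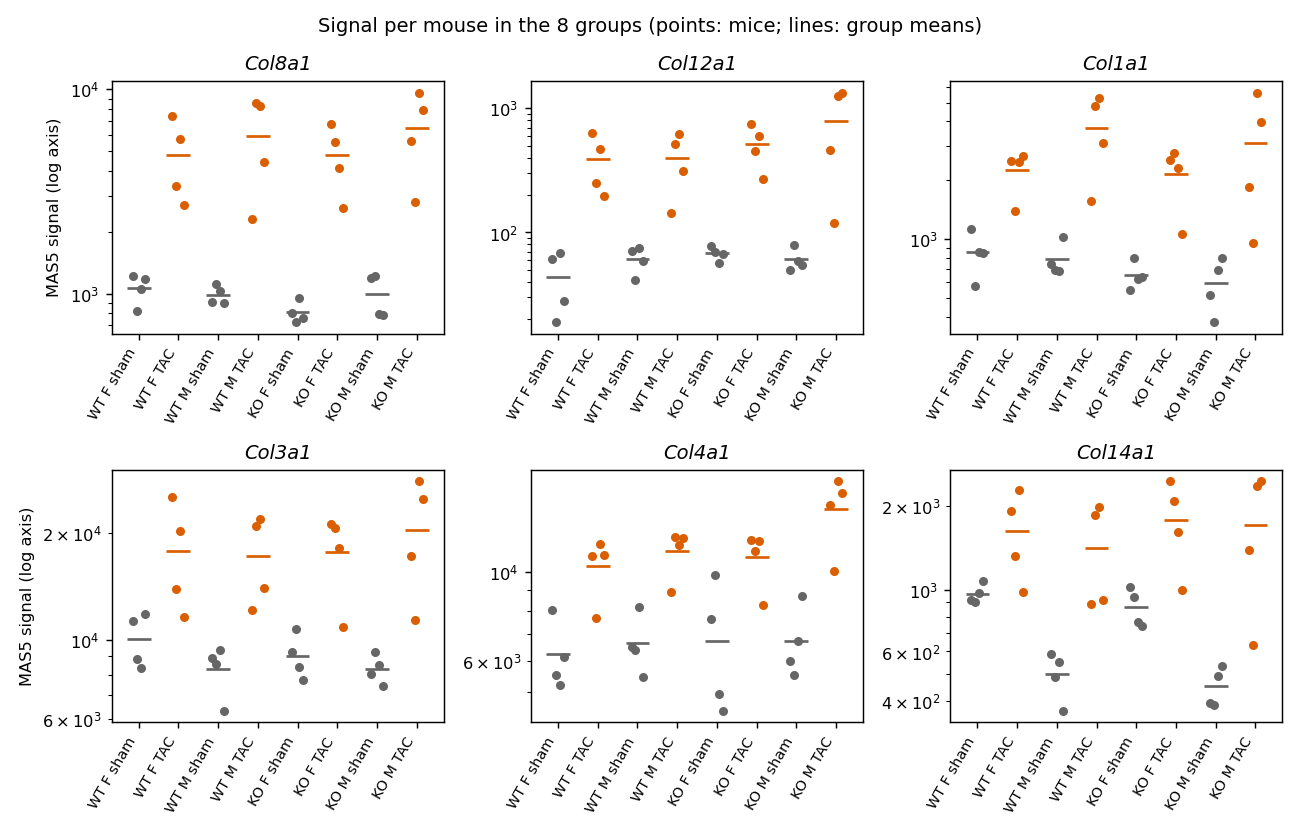
Signal of 6 collagen chains in each mouse of the 8 groups (vertical axis logarithmic, MAS5 signal; points are mice, grey sham and orange TAC, lines are group means). For Col8a1, Col12a1 and Col1a1 no TAC mouse overlaps the sham mice of its own sex and genotype, whereas Col14a1 also differs between female and male sham mice.

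The changes of chains that share a trimer or a fibril were compared through the brightest probe set of each. For types I and III the order depended on the probe set. With the brightest ones the change of Col1a1 exceeded that of Col1a2 by 0.49 (permutation of TAC and sham within strata, two-sided, 5 pairs tested, p = 0.00279, adjusted p = 0.00349). Col1a1 then exceeded Col3a1 by 0.80 (p = 3e-05, adjusted p = 7.5e-05 in the same permutation test). The second brightest probe sets, all above the tested level, rose by 1.16 for Col1a1, 1.71 for Col1a2 and 1.56 for Col3a1, which turned both differences, to -0.55 and -0.40 (permutation adjusted p = 7.5e-05 and 0.00782). The order of these 3 chains thus differed between probe sets. Col5a1 changed less than Col5a2, by -0.84 (p = 1e-05, the smallest that the 100000 permutations can give, adjusted p = 5e-05), and the difference was below 0 in all 6 combinations of their probe sets above the level (-1.03 to -0.75). The difference of Col6a1 from Col6a2 was -0.22 (permutation p = 0.00027, adjusted p = 0.00045), but -0.12 with the second probe set of Col6a2 (permutation adjusted p = 0.102). For Col4a1 and Col4a2 the difference was -0.10 (permutation p = 0.0964, adjusted p = 0.0964), negative in 3 of 4 strata, and -0.15 with the second probe set of Col4a1 (permutation adjusted p = 0.0168). Each chain was read by its own probe set, whose response to RNA amount is its own.

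In wild-type females 8 of the 22 chains were called higher and 0 lower, where 2.05% of all tested genes were called higher, and the median change was 0.67. The chains were Col12a1, Col1a1, Col1a2, Col4a1, Col4a2, Col4a4, Col5a2 and Col8a1, and the calls of Col1a1 (adjusted p = 0.0461) and Col4a1 (adjusted p = 0.0445) lay near the threshold. In wild-type males 14 were called higher and 0 lower (background 3.11%), with a median of 0.93. In knockout females 12 were called higher and 0 lower (background 3.75%), with a median of 0.71. In knockout males 19 were called higher and 0 lower (background 19.6%), with a median of 1.09. The 3 chains not called in knockout males were Col4a3, Col4a5 and Col20a1. The 8 chains called in wild-type females were called in all 4 strata, where 1.21% of all genes were. All 22 chains had changes above 0 in every stratum, against 27.2% of all genes. Without Col12a1 the counts were 7, 13, 11 and 18 of 21 in the same order of strata, and 7 chains were called in all 4. These counts come from a fit that shares 1 spread over all groups. When only the groups compared were fitted, 10, 16, 11 and 14 of the 22 chains were called higher in that order. The shares of all genes called higher were then 3.47%, 6.42%, 2.16% and 7.16%. The order of the 2 male strata thus depended on the fit.

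The TAC mice of a stratum lay above all its sham mice for 9 chains in wild-type females, where this held for 7.82% of all genes, for 19 in wild-type males (9.85%), for 12 in knockout females (5.78%) and for 16 in knockout males (11.5%). Col12a1, Col16a1, Col1a1, Col1a2, Col5a2 and Col8a1 did so in all 4 strata (1.43% of all genes), which leaves 5 chains without Col12a1. With the beta-actin 3-prime measure, which moved with TAC, as a covariate, 14 chains were called higher over the strata, where 4.52% of all genes then were. In the same fit the wild types had 3 chains called higher in females (0.735% of all genes) and 3 in males (0.917%), and the knockouts had 4 in females (0.79%) and 16 in males (5.11%). With that of Gapdh, 19 were called higher over the strata (10.6%) and 3 and 9 in wild-type females and males (1.05% and 1.06%). Estimates of chains that lost their call with the beta-actin covariate moved both ways. In wild-type females and males Col1a2 was larger than without it, at 1.14 and 1.29. Col1a1 was slightly smaller, at 1.28 and 1.95, and Col4a2 smaller, at 0.58 and 0.59. Because the beta-actin measure moved with TAC, that fit cannot tell their parts apart. What part RNA integrity had in the calls was not tested beyond these fits. The count in wild-type females was also 3 when TAC replicate 1 or 3, or sham replicate 2 or 3, was left out, and 4 when sham replicate 4 was. Of all genes 120, 134, 176, 232 and 218 were then called in either direction, against 361 with all mice. The count of chains in wild-type males was 7 without TAC replicate 2 and 8 without TAC replicate 3. Of all genes 189 and 251 were then called, against 612 with all mice, so the calls fell across the array.

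Whether sex or genotype altered the response was asked by comparing the 4 changes with each other. The labels give the length of TAC for the knockouts only. In the genotype comparisons a different length of TAC therefore cannot be told apart from genotype. In limma 0 of 22 chains passed in any of the 5 comparisons, and 0 of 11014 genes passed in any of them (background 0%). At an unadjusted p of 0.05, 2 chains differed between the sexes in knockout mice, where 7.29% of all genes did. In the other comparisons 0 chains did, against 1.8% of all genes for sex in wild types, 2.85% for genotype in females, 13.8% for genotype in males and 3.35% for the difference of the sex differences. The 2 were Col4a2, whose response was larger in knockout males by 0.66 ± 0.28 (95% interval 0.09 to 1.23, adjusted p = 0.661), and Col27a1, by 0.53 ± 0.23 (0.07 to 0.99, adjusted p = 0.661). In wild-type mice the male response of Col1a1 exceeded the female one by 0.70 with an interval of -0.43 to 1.82, and that of Col8a1 by 0.33 with an interval of -0.69 to 1.34. Between genotypes in males the difference was 0.68 for Col1a2 (-0.09 to 1.44) and 0.75 for Col16a1 (-0.05 to 1.56). With intervals this wide, moderate differences in response were not detectable with 4 mice per group.

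**Figure D3:**
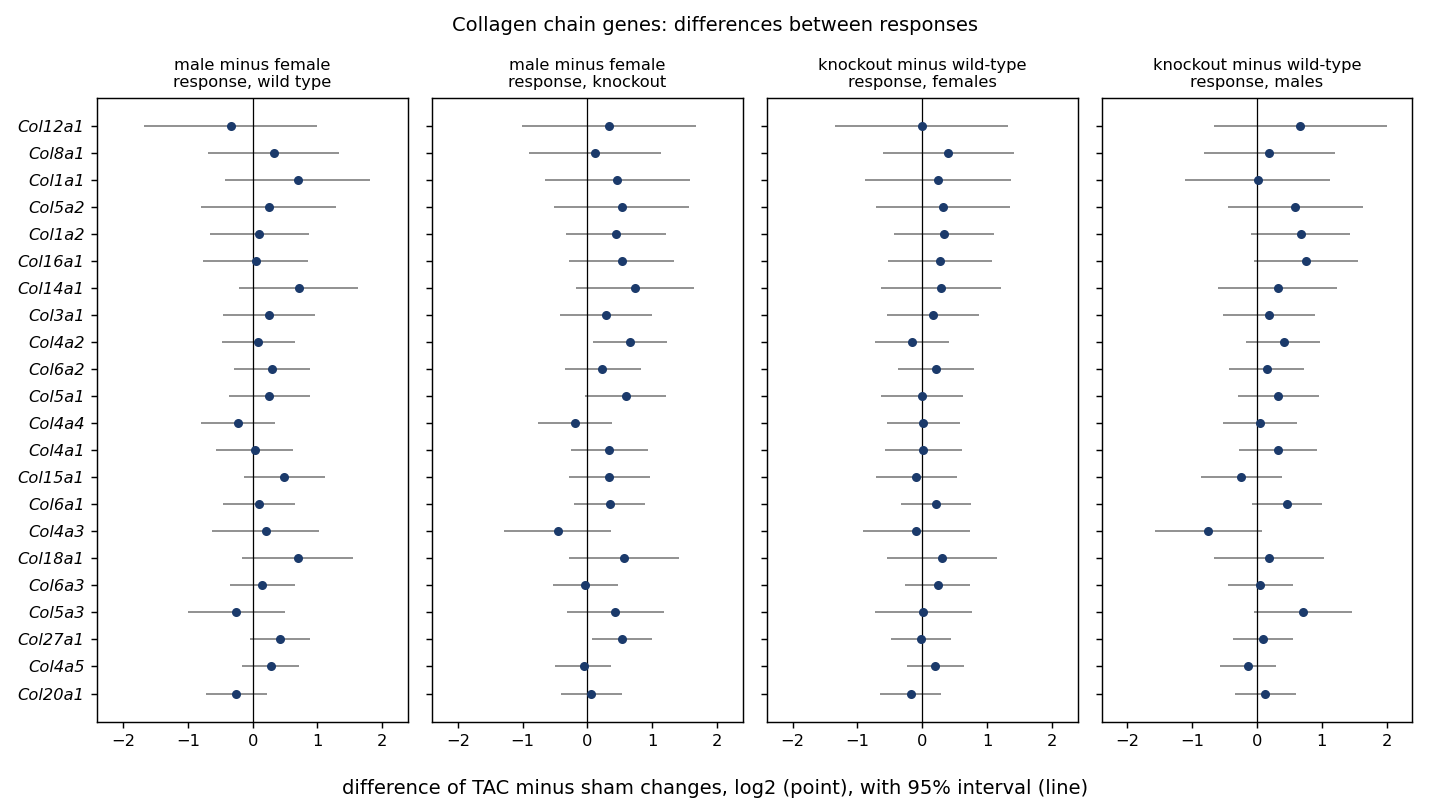
Differences between the TAC responses of 2 strata for each tested collagen chain, with 1 panel per comparison (horizontal axis, difference of TAC minus sham changes in log2; points are limma estimates, lines 95% intervals). Nearly all intervals include 0; those of Col4a2 (0.09 to 1.23) and Col27a1 (0.07 to 0.99) for sex in knockout mice do not, before adjustment.

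The direction of these differences was uneven across chains. The male response was larger for 18 of 22 chains in wild-type mice, where the difference was above 0 for 48.5% of all genes, and for 18 of 22 in knockout mice (53.9%). The knockout response was larger for 15 of 22 chains in females (51.2%) and for 19 of 22 in males (54%). The sex difference itself was larger in knockouts than in wild types for 14 of 22 chains (53.4%). The change was largest in knockout males for 16 of 22 chains, as it was for 39.8% of all genes, and smallest in wild-type females for 13 of 22 (24.5%). These comparisons share groups, and the chains share mice, so the counts are not independent of each other. Col4a3, read by its brightest probe set alone, went the other way, with a knockout minus wild-type difference of -0.75 ± 0.40 in males. With gene-by-gene array weights, under which 26.4% of all genes passed and 2 of 22 chains did, Col16a1 (1.05 ± 0.33, adjusted p = 0.0197) and Col4a3 (-1.15 ± 0.33, adjusted p = 0.0131) passed in that comparison.

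TAC mice of the same group differed in how far all their chains had moved. For the 21 called chains, the median distance above the sham mean of the mouse's own group was 1.18, 0.43, 0.91 and 0.46 in wild-type female TAC replicates 1 to 4. In wild-type males it was 0.56, 1.18, 1.03 and 0.80. In knockout females it was 0.91, 0.88, 0.88 and 0.37. In knockout males it was 1.15, 0.49, 1.72 and 1.25. Replicate 2 of the knockout males was thus the lowest of its group, for 19 of the 21 chains, and replicate 3 the highest, for 16. Replicate 4 of the knockout females was lowest for 18 chains, and replicate 1 of the wild-type males for 17. Among the wild-type females replicate 4 was lowest for 10 chains and replicate 2 for 9.

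Among 2562 other genes called higher after TAC, knockout female replicate 4 was lowest for 58.5% and knockout male replicate 2 for 55%. Wild-type male replicate 1 was lowest for 34.9% and also highest for 884 of the 2562, the most of its group, and replicate 4 of that group was lowest for 34%. For 10 genes of activated fibroblasts, such as Postn and Cilp, wild-type male replicate 1 and knockout male replicate 2 were lowest for 9 each and knockout female replicate 4 for 7. Postn was 3689 in wild-type male TAC replicate 1 and 14314 to 25494 in the other 3. Myl7 was 5200 in that mouse and 25.8 to 54.3 in the other 3 mice of its group, and was 2092 in knockout female replicate 4 and 59.6 in knockout male replicate 2. Myh7, the slow myosin gene that responds to pressure overload, was 21803 in wild-type male replicate 1 and 29507 to 30828 in the others of that group. In knockout male replicate 2 Myh7 was 29398, against 37816 to 41346. In knockout females Myh7 did not follow the collagens, since it was 29445 in replicate 4 and lowest, at 26473, in replicate 1, the highest mouse for 15 of the 21 chains. The part of atrial tissue in these differences was not tested. With the mean of the atrial genes Myl7, Sln and Myl4 as a covariate, chosen after the data were seen, 20 chains were called higher over the strata. Of all genes 24.1% were called higher in that fit.

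**Figure D4:**
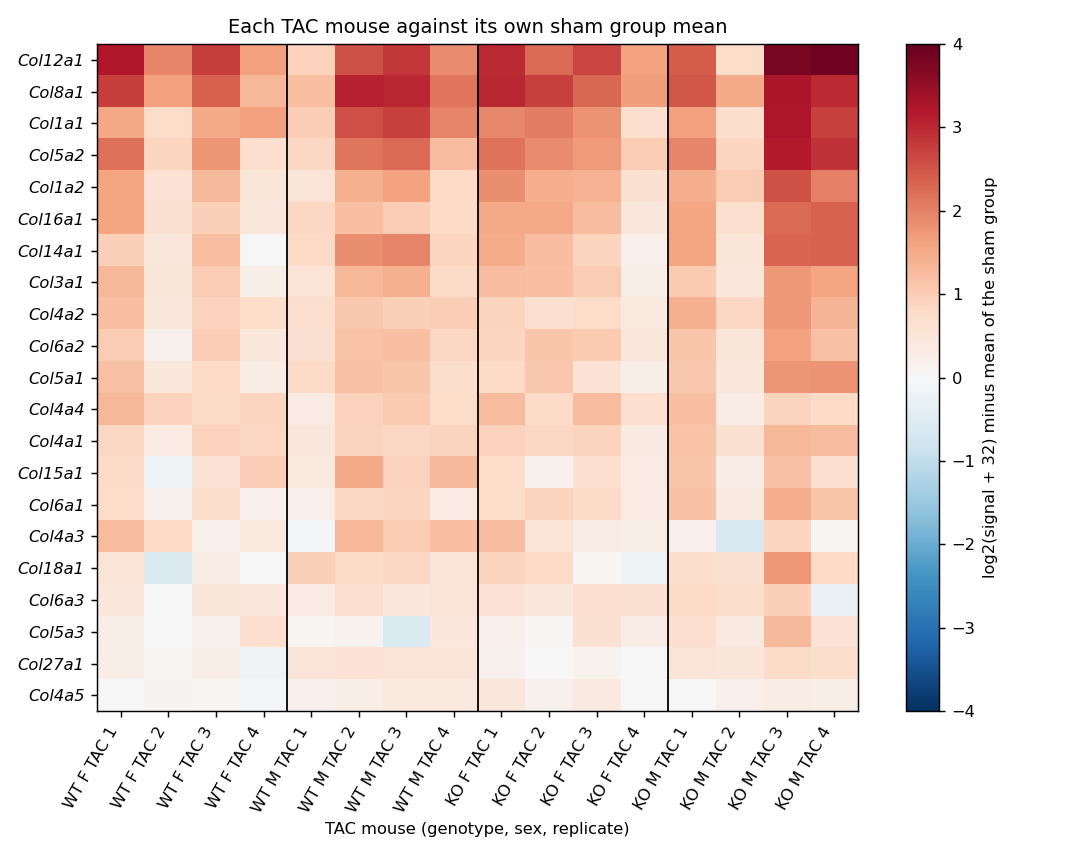
Heat map of the 21 called collagen chains (vertical) in the 16 TAC mice (horizontal, by genotype, sex and replicate), coloured by log2(signal + 32) minus the mean of the sham group of the same sex and genotype. Columns differ as a whole: knockout male replicate 3 is dark in most chains (median 1.72) and knockout female replicate 4 is pale (median 0.37).

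Among sham mice 0 chains were called in limma for sex or genotype, where 5, 3, 0 and 10 genes passed for sex in wild types, sex in knockouts, genotype in females and genotype in males (0.0454%, 0.0272%, 0% and 0.0908% of all). At an unadjusted p of 0.05, 2, 2, 0 and 1 chains differed in the same order, against 2.46%, 10.4%, 9.71% and 12.2% of all genes. Col14a1 had the largest difference by sex in both genotypes. Its signals were 918, 902, 976 and 1074 in wild-type female and 589, 487, 552 and 367 in wild-type male sham mice. Among knockout sham mice Col14a1 was 1022, 941, 766 and 740.4 in females and 392, 386, 491 and 533 in males. Every male lay below every female in both genotypes. The male minus female difference was -0.93 ± 0.32 in wild types (unadjusted p = 0.00647, adjusted p = 1 in limma) and -0.90 ± 0.32 in knockouts (unadjusted p = 0.00832, adjusted p = 0.39). Fitted on the 8 wild-type sham mice alone, the difference passed (adjusted p = 0.0106 in limma), where 0.0908% of all genes did. Fitted on the 8 knockout sham mice alone, 0 chains passed, Col14a1 included, where 0.0272% of all genes did.

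Males lay below females without overlap for 3 of 22 chains in wild-type sham mice, against 2.17% of all genes, and for 2 in knockout sham mice, against 1.33%. In both genotypes at once this held for 5 of 11014 genes (0.0454%), which were Col14a1, Islr, Kdm5c, Tmem119 and Xist. They were looked up after the values were seen. Kdm5c and Xist are on the X chromosome and are known to be higher in females, and Islr is a fibroblast marker. After TAC Col14a1 was 1911, 1325, 2269 and 978 in wild-type females and 885, 1851, 1981 and 919 in wild-type males. In knockout TAC mice it was 2447, 2072, 1607 and 996 in females and 1390.4, 634, 2355 and 2449 in males. The sexes overlapped after TAC, and the difference between the male and the female response was 0.71 ± 0.45 in wild types and 0.74 ± 0.45 in knockouts (adjusted p = 1 and 0.661 in limma).

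Genes that act on collagen, or on the matrix and signals around it, were followed over the mean of the 4 strata. There the background was 23.5% higher and 17.8% lower. Of 19 tested chaperones and modifying enzymes, 14 were higher and 1 lower, with a median of 0.35. The prolyl 3-hydroxylases P3h2 and P3h3 rose by 1.15 ± 0.11 and 0.78 ± 0.09, the prolyl 4-hydroxylase subunit P4ha1 by 0.88 ± 0.12, and Rcn3, a chaperone of the endoplasmic reticulum, by 1.16 ± 0.13. P3h4 fell by 0.39. Of 9 processing and cross-linking genes, 7 were higher and 1 lower, with a median of 0.91. They included the lysyl oxidase family member Loxl1 (1.45 ± 0.13), the enhancers of procollagen C-proteinase Pcolce (1.04 ± 0.10) and Pcolce2 (0.91 ± 0.12), and the transglutaminase Tgm2 (0.58 ± 0.07), while the procollagen N-proteinase gene Adamts3 fell by 0.35.

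Of 28 matrix genes that bind collagen or regulate fibrils, 20 were higher and 2 lower, with a median of 0.94. Mfap4 (4.06 ± 0.29), Cilp (3.12 ± 0.19), Thbs4 (2.82 ± 0.20) and Ccn2 (2.31 ± 0.19) had the smallest p-values of the list, and Thbs2 and Ogn fell by 0.61 and 0.35. Of 17 genes of collagen breakdown and its inhibitors, 10 were higher and 1 lower, with a median of 0.34. The metalloproteinase genes Mmp23 (1.27 ± 0.13) and Mmp2 (0.94 ± 0.12) rose together with Mrc2 (1.12 ± 0.13), the receptor that takes up collagen fragments, and with the inhibitor Timp1 (2.13 ± 0.29), whereas Mmp9 fell by 0.57. Of 11 receptors of collagen or other matrix, 4 were higher (Itgb5, Ddr1 and Antxr1 among them, at 0.82, 0.54 and 0.46). Antxr2, which takes up collagen VI, fell by 0.61 ± 0.08. Of 22 TGF-beta ligands, receptors and signal carriers, 16 were higher and 3 lower, with a median of 0.40. Ltbp2 (3.27 ± 0.26), the ligand gene Tgfb3 (1.24 ± 0.10) and the feedback inhibitors Pmepa1 (1.12 ± 0.10) and Bambi (0.71 ± 0.08) rose, and Ltbp1, Tgfbr3 and Smad3 fell by 0.72, 0.49 and 0.28. With the beta-actin 3-prime measure as a covariate the genes past the threshold in either direction numbered 4 chaperones (15 without it), 5 processing genes (8), 4 breakdown genes (11) and 7 TGF-beta genes (19). In that fit 7.87% of all genes passed in either direction, against 41.2% without the covariate.

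**Figure D5:**
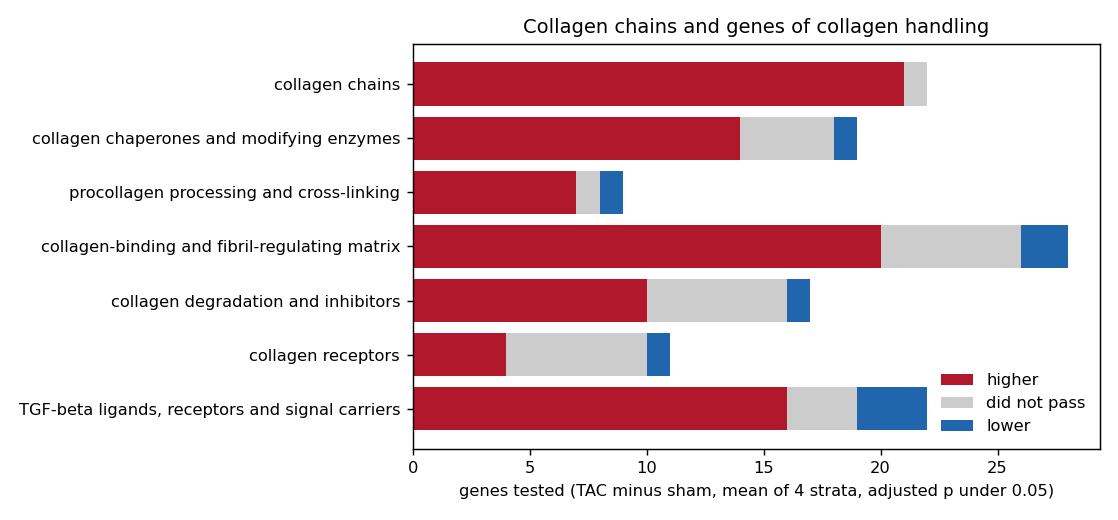
Number of tested genes called higher, called lower or not past an adjusted p of 0.05 for TAC minus sham over the mean of 4 strata (horizontal axis, genes). Rows are the collagen chains and 6 lists of genes that act on collagen or on the matrix and signals around it. Of the collagen chains 21 of 22 were higher, and of the receptors 4 of 11.

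Markers of the cells in the ventricle were counted over the mean of the 4 strata, where 23.5% of all genes were higher and 17.8% lower. Of 12 fibroblast markers 7 were higher and 0 lower, with a median of 0.29, and their summed signal was 51123 to 77917 in sham and 56279 to 95542 in TAC mice. Of 10 activated-fibroblast markers 8 were higher and 1 lower, with a median of 2.75 and sums of 6289 to 11979 in sham and 12091 to 65426 in TAC mice. Of 10 macrophage markers 9 were higher and 0 lower, with sums of 9743 to 17140 and 13295 to 31406. Of 10 endothelial markers 2 were higher and 2 lower, near those shares, and of 8 cardiomyocyte markers 0 were higher and 3 lower. Pericyte and smooth muscle markers had 4 of 9 higher and 5 lower, with sums of 30198 to 48745 in sham and 22494 to 38806 in TAC mice. Of the valve and cartilage markers 7 of 9 lay below the tested level and 1 of the other 2, Prg4, rose by 1.60 ± 0.22. Their sums were 738 to 1340 in sham and 1342 to 9801 in TAC mice. Skeletal muscle and adipocyte markers all lay below the level. Of the atrial, epicardial and Schwann cell markers 2 of 5, 1 of 6 and 0 of 4 were higher and 0, 0 and 1 lower. The 2 atrial ones were Nppa (2.13) and Dkk3 (1.26). The other atrial ones, Myl7 (-0.96), Sln (-0.81) and Myl4 (-0.35), were below 0 and did not pass. Parts of these lists, such as Cilp, Thbs4 and Mfap4, were counted in the matrix list too. The part of changed cell numbers in the collagen changes was not tested.

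The 20 collagen genes below the tested level were Col2a1, Col7a1, Col8a2, Col10a1, Col11a1, Col11a2, Col13a1, Col17a1, Col19a1, Col22a1, Col23a1, Col24a1, Col25a1, Col26a1, Col4a6, Col6a4, Col6a5, Col9a1, Col9a2 and Col9a3. They include the fibrillar chains Col2a1, Col11a1 and Col11a2, best known from cartilage, all 4 transmembrane chains and the epidermal anchoring chain Col7a1. In the main fit 41.2% of the 11014 genes at or above the level passed over the strata, so no excess is read from the count that follows. With all genes tested, 3 of the 20 passed over the strata. Beside Col8a2 these were Col9a2 (0.34 ± 0.09, adjusted p = 0.00324 in limma), with signals of 1.7 to 8 in sham and 2.8 to 36.6 in TAC mice, and Col9a1, which fell by 0.53 ± 0.16 (adjusted p = 0.014), with signals of 19.3 to 147.5 in sham and 17.9 to 151.8 in TAC mice. The signals of Col9a2 lay far below the tested level of 106.1, and those of Col9a1 lay on both sides of it.

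Most tested chains had more than 1 probe set. Of 26 further probe sets of tested chains, 18 lay at or above the tested level, all 18 had a change above 0 over the strata, and 16 of them had an unadjusted p under 0.05 in limma. Of the 26, only the dim probe set of Col5a3 pointed the opposite way at that threshold.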

How the data were processed

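Total RNA (TRIzol, oligo(dT)-primed labelling, per the labels' protocols) of each mouse was hybridised to its own Affymetrix mouse 430 2.0 array. The authors deposited a linear intensity for every probe set. The submitters' processing notes name MAS5 5.0. Batches, dates of scanning and a build are not given in the sources used here. As the 2% trimmed mean equalled 500 throughout, no further normalization was applied. The number of arrays limits the precision.

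Of 45101 probe sets, 64 were controls, 34945 carried a single symbol in the platform annotation, 932 carried several and 9160 carried none. Values were taken as log2(signal + 32), 1 probe set per gene was kept by highest mean, and genes with a mean of at least 7.11 (median over probe sets other than controls) were tested, 11014 of 18193. The 8 group means were fitted once with lmFit of limma 3.58.1 (R 4.3.3), and contrasts.fit followed by eBayes (trend on) gave 14 two-sided comparisons, adjusted by Benjamini-Hochberg within each at 0.05. The mean of 4 strata weights them equally. The spread is shared by all groups. Partner chains were compared per mouse with 100000 permutations within strata. The fit was tested on simulated data.

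Members described in full were the 10 with the smallest p over the strata plus Col1a1, Col1a2, Col3a1, Col4a1 and Col4a2, 12 in all. Of each list up to 4 members past the threshold with the smallest p were named. Genes that fell, Col14a1 and the low members that passed were named beside these after their values were seen. The members and lists were chosen with earlier results of these data known. Replicates were individual mice per the labels. Promoter sequences and the order of genes came from RefSeq tables (GRCm38.p6). Alternatives were other scalings, pseudocounts of 1 and 100, filters, probe set rules, a replicate block, array weights, robust estimation, covariates, a fold minimum of 0.5, only the groups compared, and leaving out each mouse. Figures were drawn with matplotlib 3.10.9.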

Additional observations from a re-analysis of the deposited data

Results flagged for a closer look

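In 8 of the 176 combinations of a tested chain and a group of 4 mice, 1 mouse stood apart from the other 3 by a gap that took more than Dixon's share of the group's range. Chance gives about 1 in 20 groups. Among the wild-type female TAC mice replicate 2 stood low for 3 chains: Col1a1 at 1397.7 (the others 2465.3 to 2666), Col4a1 at 7697.3 (10972.3 to 11740.8) and Col6a3 at 1384.3 (1907.3 to 1970). Col4a1 also had a low mouse among the wild-type male TAC mice, replicate 1 at 8936.2 (11706.4 to 12252.3), and among the knockout female TAC mice, replicate 4 at 8286.1 (11327.2 to 12039.3). Col18a1 had a high mouse among the knockout male TAC mice, replicate 3 at 608.8 (258.3 to 299.2). In the sham groups Col20a1 was high in knockout male replicate 2, at 255.8 (168 to 171.7), and Col27a1 was low in knockout female replicate 4, at 314.7 (423.4 to 437.7).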

How the results depend on the processing

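Over the 4 strata 21 chains were called, and leaving out single mice gave 19 to 21. In the same way the counts were 3 to 12 in wild-type females (8 with all mice), 7 to 17 in wild-type males (14), 8 to 14 in knockout females (12) and 16 to 19 in knockout males (19). They were 0 to 0 in each comparison of responses or of sham groups. At the lowest wild-type counts 120 to 232 of all genes were called in females (361 with all mice) and 189 in males (612). The differences between partner chains stayed within 0.42 to 0.54 (Col1a1 and Col1a2), 0.73 to 0.86 (Col1a1 and Col3a1), -0.12 to -0.07 (Col4a1 and Col4a2), -0.89 to -0.79 (Col5a1 and Col5a2) and -0.24 to -0.20 (Col6a1 and Col6a2).

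With the Gapdh covariate 3 chains were called in wild-type females and 9 in wild-type males. In that fit 7 chaperones, 7 degradation genes and 12 TGF-beta genes changed over the strata (15, 11 and 19 without it). Of all genes 18.5% then passed over the strata, against 41.2% without it. With the beta-actin covariate 3 chains in female and 3 in male wild types and 4 in female knockouts were called. Over the strata 4 chaperones, 5 processing, 4 degradation and 7 TGF-beta genes then passed, where 7.87% of all genes did. A stricter filter left 5 processing genes, 4 of them called, and 9 degradation genes, 6 of them called. The mean of all probe sets gave -0.12 for Col4a1 minus Col4a2 (permutation adjusted p = 0.0167). Array weights gave 2 calls in the comparison of genotype responses in males, where 26.4% of all genes passed, and 2 in male sham mice by genotype (Col4a5 and Col6a1), where 13.2% did, so 2 of 22 lay below the share of all genes in both. With only the groups compared 1 chain, Col14a1, was called in wild-type sham mice by sex (0.0908% of all genes), and 0 in knockout sham mice (0.0272%). The cause was not tested. With the second brightest probe sets, an alternative chosen after seeing the data, Col1a1 minus Col1a2 turned to -0.55 and Col1a1 minus Col3a1 to -0.40, Col6a1 minus Col6a2 was -0.12 (permutation adjusted p = 0.102) and Col4a1 minus Col4a2 was -0.15 (0.0168). No other result reversed under the alternatives run, although the dim probe set of Col5a3 gave -0.21 against 0.33.

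The replicate numbers did not pair the mice: deviations from group means correlated at 0.007 on average for the same number and -0.0022 for other numbers, and 12 of 32 mice were closest to their own number. With the replicate number as a block 21 chains were called over the strata. Signals near the background limit what can be said of the 20 dim chains.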
